A study of Macaca mulatta with 24 samples.

Results

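The comparison described here is the interaction of testosterone and diet on DNA methylation in omental (visceral) white adipose tissue (WAT) of female rhesus macaques. It asks whether testosterone changed a CpG differently on chow and on a western-style diet. All 24 animals and all 841143 CpG rows of the table entered it, and no row was chosen in advance. The groups were controls (C, cholesterol implant and chow, animals 1 to 6), T+WSD (testosterone implant and western-style diet, animals 7 to 12), T (testosterone implant and chow, animals 13 to 18) and WSD (cholesterol implant and western-style diet, animals 19 to 24). Each group had 6 animals, which carried their implants for 3 years, and the labels give every animal an age of 4 years. The methods of the study describe the animals as older when the tissue was taken. The assay was RRBS (reduced-representation bisulfite sequencing), in which MspI-cut DNA is bisulfite-treated so that methylated cytosines can be told from unmethylated ones. Each value is the percent methylation of 1 CpG in 1 animal.

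The interaction difference is the effect of testosterone on the western-style diet minus its effect on chow, which equals the sum of the C and T+WSD means minus the sum of the T and WSD means. It therefore sets animals 1 to 12 against animals 13 to 24, and the gap between the means of these sides is 50% of the interaction difference. The labels name no batch. Any batch that followed the animal numbers and the interaction cannot be told apart with these samples. The tissue was measured in bulk, so a change within cells and a change in the mix of cell types cannot be told apart either.

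Methylation of a CpG is a covalent mark that cells copy at division. CpG-dense stretches are mostly unmethylated in somatic tissue, while CpGs in sparse sequence are mostly methylated, and an intermediate value in bulk tissue means that cells or alleles differ. Neighbouring CpGs usually carry similar levels, because the enzymes that add and remove the mark act along a stretch of DNA. In females one X chromosome is inactivated, and many X-linked CpGs are therefore methylated on one copy.

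In the limma fit across all rows, 146 CpGs were differentially methylated (DMCs). A DMC had an interaction difference over 10 percentage points in either direction at a Benjamini-Hochberg adjusted p under 0.05. They made up 0.0174% of the rows tested. Of these, 117 (0.0139%) were more methylated in C and T+WSD, and 29 (0.00345%) were more methylated in T and WSD. An unadjusted p under 0.05 was found at 45575 rows (5.42%), the lowest share of the 5 contrasts fitted. The DMC with the largest p was on chromosome 4 at position 113553814, where C and T+WSD both averaged 99.1% and T and WSD averaged 93.7% and 84.1%. Just outside the threshold, chromosome 18 position 38561825 averaged 94.8% in C and 91.7% in T+WSD, beside 98.5% over animals 13 to 24.

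All 146 DMCs had both group means of one side beyond both means of the other, a pattern that the choice by this contrast favours. At DMCs that were higher in C and T+WSD, the median of T minus C on chow was -27.65 points and the median of T+WSD minus WSD was 26.8 points. The median gap between the sides was 25.8 points in absolute value (quartiles 17.4 and 36.8), against 1.38 points over all rows, and 26 DMCs had a gap over 40 points. Of those 26, 25 were higher in C and T+WSD. At 74 of the 117 DMCs higher in C and T+WSD, animals 1 to 12 averaged between 20% and 80%. These 117 DMCs had a median level of 65.2% in animals 1 to 12 and 23.8% in animals 13 to 24, and at 18 of them animals 13 to 24 averaged under 5%. The 29 DMCs of the opposite direction had medians of 44.5% and 72.1%, with a smaller median gap of 13 points. These levels describe CpGs that were selected on the same values and were not tested further.

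Every animal with a value on one side lay above every animal with a value on the other at 62 CpGs (0.00737% of rows). Of these 59 were DMCs, 51 in the direction of C and T+WSD and 8 in the direction of T and WSD, and 36 of the 59 had a value in all 24 animals. The same count was 3 when animals with testosterone were set against those without, and 7 for western-style diet against chow.

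The largest gap among the named DMCs was on chromosome 4 at position 45310582 (rheMac8). C averaged 73.8% ± 7.68 (SD, n = 6) and T+WSD 66.1% ± 8.99 (n = 6), while T averaged 1.56% ± 2.42 (n = 6) and WSD 1.79% ± 3.57 (n = 4). Animals 1 to 12 ranged from 53.3% to 84.8% with a median of 69.6%, and the 10 animals with a value among 13 to 24 ranged from 0% to 7.14%, so the sides were far apart (limma, adjusted p = 4.97e-09).

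On chromosome 11 at position 130760594 the means were 71.0% ± 6.40 in C and 70.0% ± 4.93 in T+WSD (n = 6 each), against 8.87% ± 7.25 in T (n = 5) and 6.94% ± 8.80 in WSD (n = 6). The lowest of animals 1 to 12 had 63.8% and the highest of animals 13 to 24 had 20%. On chromosome 8 at position 51154958 every animal had a value. C averaged 85.9% ± 8.57 and T+WSD 78.3% ± 5.35, with T at 20.9% ± 11.6 and WSD at 20.5% ± 7.20 (n = 6 each). There the lowest of animals 1 to 12 was 70.3% and the highest of animals 13 to 24 was 36.4%.

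Chromosome 15 position 2945858 had 73.2% in C and 62.7% in T+WSD, against 3.77% in T and 9.49% in WSD, and chromosome 18 position 37845603 had 72.5% and 71.3% against 13.7% and 18.9%. In both, T and WSD lay close to each other and far from the other groups. The limma adjusted p was 1.93e-06, 1.44e-07, 1.13e-05 and 7.97e-05 for the CpGs on chromosomes 11, 8, 15 and 18.

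**Figure D1:**
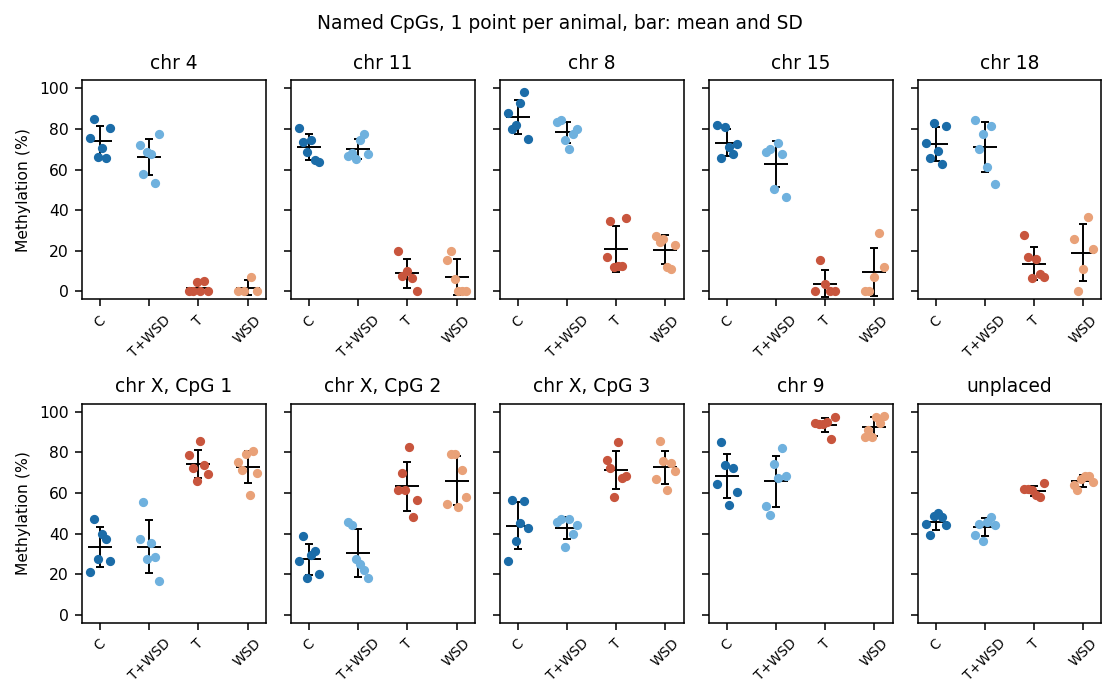
Methylation (%) of each animal at the 10 named DMCs, with the 4 groups on the x axis, 1 point per animal, and a bar for the mean and SD. In the top row C and T+WSD lie above T and WSD, by 68.3 points on chromosome 4, and in the bottom row they lie below, by 40.1 points at the first CpG on the X chromosome.

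Named DMCs of the opposite direction were led by 3 CpGs within 16 bp on the X chromosome. Position 67570373 had 33.2% ± 9.91 in C and 33.5% ± 13.1 in T+WSD, against 74.3% ± 7.01 in T and 72.6% ± 7.89 in WSD (n = 6 each). Animals 1 to 12 ranged from 16.7% to 55.6% (median 31.9%) and animals 13 to 24 from 59.2% to 85.7% (median 73.3%; limma, adjusted p = 6.89e-05). Positions 67570377 and 67570361 had gaps of -35.7 and -28.6 points with the same separation. Chromosome 9 position 97257821 had 68.3% in C and 65.8% in T+WSD, against 93.6% in T and 92.6% in WSD. Position 418 of an unplaced scaffold had the smallest spread, with C at 45.8% ± 3.97, T+WSD at 43.1% ± 4.44, T at 61.2% ± 2.43 and WSD at 65.8% ± 2.82 (n = 6 each; limma, adjusted p = 2.07e-06).

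Most DMCs stood alone. No other DMC lay within 300 bp of 110 of the 146, and the other 36 formed 11 clusters, of which 6 held exactly 2 DMCs. The largest clusters held 6 DMCs each, on chromosome 17 from 29478574 to 29478648 and on chromosome 19 from 45316431 to 45316481. The X cluster from 67570361 to 67570404 held 5 and was the largest in the direction of T and WSD.

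Differences at the neighbours of DMCs were read out to 1000 bp. Each pair of a DMC and a neighbour counted once, so a row near several DMCs counted several times. Among rows that were not DMCs themselves, the median difference in the direction of the DMC was 5.08 points at 1 to 5 bp, 6.52 at 6 to 10 bp, 5.35 at 11 to 25 bp and 2.72 at 26 to 50 bp. The direction was shared by 81.1%, 83.9%, 80.3% and 76.1% of these pairs. At 51 to 100 bp the median was -0.56 points over 196 pairs and 43.9% shared the direction. Over the 597 pairs beyond 100 bp and up to 300 bp the median was -0.31. Around DMCs with no other DMC within 300 bp, the median at 51 to 100 bp was -0.044 points and 50% shared the direction. Beyond 100 bp and up to 300 bp, 47.7% did. With neighbours that were DMCs themselves included, the medians were 8.91, 12.3, 10.2 and 4.36 points in the first 4 distance classes, where 86.3%, 87.1%, 85.1% and 79.5% shared the direction. At 51 to 100 bp the median was then -0.55 points.

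As a ratio to the DMC's own difference, the neighbours stood at 0.279, 0.337, 0.192 and 0.120 in the first 4 distance classes and at -0.028 at 51 to 100 bp. With neighbouring DMCs included, the first 4 ratios were 0.460, 0.427, 0.323 and 0.208. For the 58 DMCs of T+WSD against C (0.0069% of rows) the ratio was 0.569 at 1 to 5 bp, 0.640 at 26 to 50 bp and 0.571 at 51 to 100 bp over 51 pairs. Over the 133 pairs beyond 100 bp and up to 300 bp it was 0.095, and 61.7% shared the direction. Over the 213 pairs beyond 300 bp and up to 1000 bp the ratio was higher again, at 0.177, and 78.4% shared the direction. For the interaction DMCs the ratio at that distance was -0.010 over 652 pairs, and 45.4% shared the direction. Around those with no other DMC within 300 bp it was 0.006, and 51.8% shared the direction. Both sets of values use the C and T+WSD animals, and the difference between them was not tested.

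**Figure D2:**
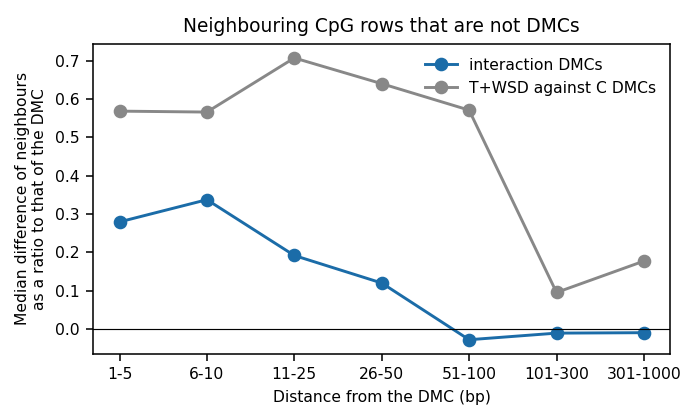
Median difference of neighbouring CpG rows as a ratio to that of the DMC (y axis) by distance from the DMC in bp (x axis). Rows that are not DMCs are used, each counted once for every DMC near it. Interaction DMCs fall from 0.279 at 1 to 5 bp to -0.028 at 51 to 100 bp, where DMCs of T+WSD against C stand at 0.571.

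At lone DMCs higher in C and T+WSD, the side that departed from its surroundings was more often animals 13 to 24. Among DMCs that were higher in C and T+WSD and had no other DMC within 300 bp, 90 had a neighbour within 50 bp. Animals 1 to 12 had a median of 67.3% at these DMCs and 73.6% at their neighbours. Animals 13 to 24 had 24% at the DMCs and 63.0% at the same neighbours. Animals 13 to 24 lay further from the neighbours at 68 of the 90, and animals 1 to 12 at 22. These DMCs were chosen for lower values in animals 13 to 24 and for having no DMC nearby. The count therefore describes them and tests nothing, and DMCs of the opposite direction were not counted.

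The named CpGs show both forms. On chromosome 4, the row 11 bp downstream had 93.2% in animals 1 to 12 and 85.7% in animals 13 to 24, and the row 28 bp upstream had 82.2% and 86.0%. The low value of T and WSD was thus held by a single row between highly methylated ones. On chromosome 18 the rows at -8, 6 and 57 bp shared the direction with gaps of 35.9, 34.0 and 36.4 points, and the rows from 91 to 130 bp had gaps between -3.74 and 3.36 points.

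The X stretch lay between rows with little difference. No row was measured between -84 and -12 bp or between 46 and 120 bp, so how sharply it ends is unknown. The 6 rows from -12 to 46 bp around position 67570373 had gaps between -25.4 and -40.1 points. The 10 rows from -150 to -84 bp had gaps between -1.33 and 1.43 points, and the rows at 120 and 148 bp had gaps of 1.35 and 0.773 points. In these outer rows the sides were at nearly equal, intermediate levels, such as 34.3% and 34.1% at -119 bp.

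**Figure D3:**
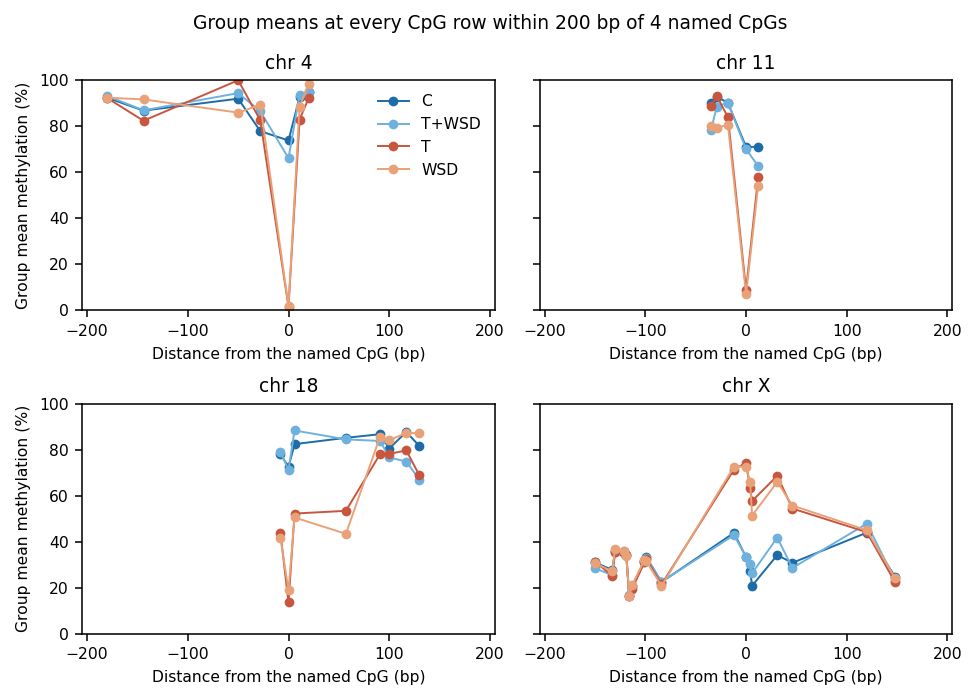
Group mean methylation (%) at every CpG row within 200 bp of 4 named CpGs, against distance from that CpG in bp, with 1 line per group. On chromosomes 4 and 11 a single row separates the groups, by 68.3 and 62.6 points, while on chromosome 18 and X several adjacent rows do.

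The table has some rows at 2 adjacent positions, which can be the cytosines of the opposite strands of 1 CpG. They can also belong to 2 CpGs that follow each other directly, and without the sequence the 2 cases cannot be told apart. An adjacent row was found for 4 DMCs (2.74%), close to the 2.76% of all rows. All 4 are named here after their values were seen. On chromosome 1 the DMC at 9226553 had a gap of 12 points and the adjacent row -6.99. On chromosome 19 the DMC at 19777143 had -7.45 and its adjacent row 3.21. On the X chromosome the DMC at 113222519 had 36.6 and its adjacent row -4.90, and position 997 of an unplaced scaffold had -27.7 and its adjacent row -3.85. None of the 4 adjacent rows was a DMC, and 3 differed in the opposite direction.

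The level of a row was taken as its mean over all animals, so a large gap between the sides itself moves a row toward the middle levels. The shares by level are therefore a description. Rows with a mean level of 25% to 75% made up 17% of the table and held 83 DMCs (56.8%), or 58.2 per 100000 rows. Rows under 5% made up 30.5% and held 5 DMCs, or 1.95 per 100000. Rows at extreme levels also have less room to pass the threshold of 10 points. An unadjusted p under 0.05, which asks for no minimum difference, was found at 3.58% of rows under 5%, at 6.90% of those at 25% to 75% and at 5.87% of those at 95% or more.

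Measured CpG density was taken as the number of other rows within 100 bp, since the sequence itself was not used here. It had a median of 4 at DMCs and of 4 over all rows. There were 20.9 DMCs per 100000 rows with 0 to 2 others, 18 with 3 to 7, 15.2 with 8 to 15 and 3.99 with 16 or more, where only 2 DMCs lay. Among rows at 25% to 75%, which hold 83 DMCs, the order differed, with 44.8, 60.7, 99.1 and 66.5 per 100000 in the same classes, the last again from 2 DMCs. Rows with no other row within 50 bp held 3 DMCs, or 3.68 per 100000 where the nearest lay at 51 to 300 bp and 3.79 (1 DMC) where it lay farther or there was none. Over all rows the rate thus fell with density, while among rows at 25% to 75% it did not. Because the level contains the gap, the part of level in the rate was not tested. An unadjusted p under 0.05 was found at 6.24%, 5.71%, 4.34% and 3.32% of the rows in the same classes. Among rows at 25% to 75% these shares were 7.05%, 6.75%, 7.15% and 5.62%.

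**Figure D4:**
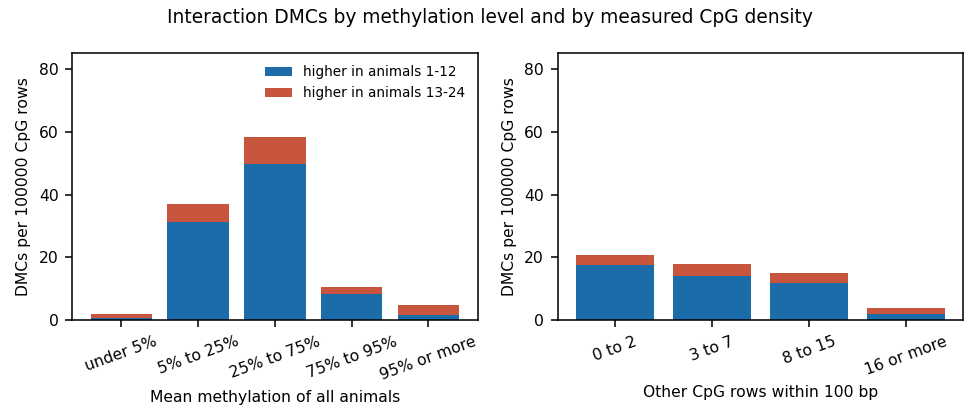
Interaction DMCs per 100000 CpG rows (y axis) by mean methylation of all animals (left) and by the number of other rows within 100 bp (right), split by the side that was higher. Rows at 25% to 75% hold 58.2 DMCs per 100000, and over rows of all levels the rate is 20.9 with 0 to 2 other rows and 3.99 with 16 or more, an order that differs among rows at 25% to 75% (44.8 and 66.5).

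The X chromosome held 19 DMCs, 13 of them higher in C and T+WSD and 5 of the other 6 in the cluster above, or 70.4 per 100000 rows against 14.4 on the autosomes. Unplaced scaffolds held 13, or 54.9 per 100000. Among rows at 25% to 75% the X chromosome had 95.7 per 100000 (9 DMCs), unplaced scaffolds 181 (10 DMCs) and the autosomes 50.1, with the same limit on the level. The counts rest on few places, since 10 of the 19 on the X chromosome lay in 3 clusters and 8 of the 13 on scaffolds lay in 3 others. An unadjusted p under 0.05 was found at 6.74% of rows on the X chromosome, at 6.12% on unplaced scaffolds and at 5.35% on the autosomes. Chromosome 17 had 43.2 per 100000, from 8 DMCs of which 6 lay in its cluster, and none of the 113 mitochondrial rows was a DMC.

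The comb-p procedure, which combines the p-values of neighbouring rows, gave 110 differentially methylated regions (DMRs), 76 higher in C and T+WSD and 34 higher in T and WSD. They covered 949 rows (0.113%), with a median of 6 rows and a length of 75 bp. Of the 949 rows, 92.6% had the direction of their region. DMCs were found in 32 DMRs, which held 46 DMCs, and the other 100 DMCs lay in none. The 78 DMRs without a DMC had a median gap of 11.6 points, against 16.5 in those with one. The X cluster was not called as a DMR.

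On chromosome 19 the DMR from 45316411 to 45316481 held 7 rows with 29.4% ± 6.52 in C, 54.3% ± 7.44 in T+WSD, 11.4% ± 3.39 in T and 13.1% ± 4.07 in WSD (n = 6 each). Animals 1 to 12 ranged from 22% to 67.6% and animals 13 to 24 from 6.49% to 17.7%. Here the groups of one side also differed, since every T+WSD animal lay above every C animal (lowest 45.5% against highest 39.1%). Its first row was low in all groups, at 3.04% in C and 12% in T+WSD.

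On chromosome 17 the DMR from 29478316 to 29478648 held 14 rows. Its first 5 rows were under 6% in every group, and its other 9 rows had gaps of 35.3 to 44.0 points. T 16 and WSD 19 had no value at any of these 9 rows, so a mean over all 14 rows would mix different rows and is not given. Over the 9 rows from 29478574 to 29478648 the level was 77.4% ± 11.6 in C and 64.8% ± 7.62 in T+WSD (n = 6 each), against 30% ± 14.7 in T and 33.5% ± 6.38 in WSD (n = 5 each). The lowest of animals 1 to 12 was at 55.7% and the highest of the others at 53.8%. Values were missing for 9.23% of its entries, and the region was not found among rows with a value in all animals.

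The DMR on chromosome 8 from 51154952 to 51154979 held 3 rows around the named CpG, with 87.6% in C and 80.3% in T+WSD, against 54.2% in T and 51.8% in WSD. In the direction of T and WSD, 2 DMRs met the rule for naming. The DMR on chromosome 13 from 3628762 to 3628792 had 33.2% ± 6.42 in C and 32.5% ± 7.40 in T+WSD, against 48.3% ± 2.53 in T and 53.6% ± 12 in WSD (n = 6 each). The one at position 418 to 443 of an unplaced scaffold had 71.9% and 70.4% against 76.6% and 79.4%. Its rows at 418 and 423 had gaps of -19.0 and -10.2 points, and those at 433 and 443 had -0.238 and 2.17.

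Over 1 kb tiles with at least 3 rows, 18 of 100864 were called by limma (0.0178%), 14 (0.0139%) higher in C and T+WSD and 4 (0.00397%) higher in T and WSD. On a log-ratio scale the split was 10 and 0, with a variance trend 12 and 0, and with the mean of arcsine rates 13 and 1. The largest differences in the direction of C and T+WSD were in the tiles that hold the DMRs of chromosomes 17, 8 and 19. They were 62.6, 62.0 and 59.2 points, followed by 58.3 points in a chromosome 12 tile. The chromosome 17 tile mixes rows in the same way as its DMR, with T 16 at 1.11% and WSD 19 at 3.43%. Its place in this order rests on that mix. On the log-ratio scale it was not called (limma, adjusted p = 0.0547). The largest in the other direction was on chromosome 14 from 111853001 to 111854000, with 16.3% ± 8.07 in C (n = 6), 19.5% ± 10.4 in T+WSD (n = 5), 39.0% ± 16.5 in T and 56.5% ± 16 in WSD (n = 6 each). Its adjusted p was 0.0435, it held no DMC, and the sides overlapped. Its call was lost when any of 17 of the 24 animals was left out. The tiles on chromosome 13 and X followed, with interaction differences of -36.1 and -19.4 points. The chromosome 13 tile also lost its call in 17 of the 24 fits that left out 1 animal and under 3 other alternatives, and the X tile without C 6, without T 15 and under 3 others.

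To see whether single animals carried the pattern, the DMCs were called again without each animal in turn, and that animal's values were then read. At DMCs that were higher in C and T+WSD, the left-out animal averaged between 54.3% and 60.8% for animals 1 to 12 and between 29.7% and 37.8% for animals 13 to 24. The ranges did not overlap. The animal lay on its own side of the midpoint at 70.5% to 90.8% of the DMCs called without it, with WSD 23 lowest and T+WSD 9 highest. T 16, which had the fewest rows with a value, had 37.8%, and 76.4% of the DMCs lay on its own side.

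**Figure D5:**
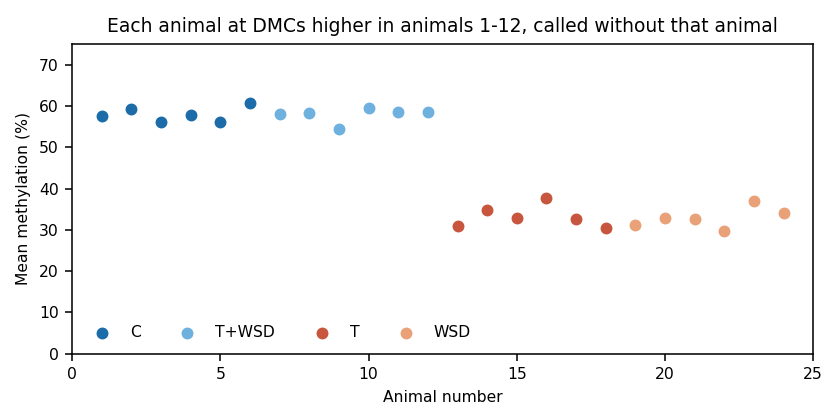
Mean methylation (%) of each animal (y axis) by animal number (x axis) at DMCs higher in C and T+WSD that were called without that animal. Animals 1 to 12 sit between 54.3% and 60.8% and animals 13 to 24 between 29.7% and 37.8%.

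All contrasts shared the residual variance of 1 fit, and the DMCs were chosen for a low p, which lowers the p of the other contrasts at them as well. At the 146 DMCs the median absolute difference was 4.55 points between T+WSD and C and 2.66 points between T and WSD. An unadjusted p under 0.05 was found at 19.9% of DMCs for T+WSD against C (7.61% of all rows) and at 12.3% for T against WSD (5.70%). For the main effects the shares were 21.2% for testosterone (5.89% of all rows) and 16.4% for diet (7.07%). Called were 3 DMCs for T+WSD against C, beside 58 over all rows (0.0069%), and 0 for T against WSD. Over all rows T against WSD gave 0 DMCs by limma with 47932 rows at an unadjusted p under 0.05. The main effect of testosterone gave 0 DMCs with 49556 such rows, and that of diet gave 3 DMCs (0.000357%).

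At the thresholds used, the interaction gave the most DMCs of the 5 contrasts, but not the most regions or tiles. The comb-p procedure gave 603 DMRs for T+WSD against C and 371 for the main effect of diet, beside 110 for the interaction, 82 for the main effect of testosterone and 24 for T against WSD. Among tiles, limma called 208 for T+WSD against C (0.206%), 18 for the interaction and 13 for diet (0.0129%). It called 0 for testosterone, with 7703 tiles at an unadjusted p under 0.05, and 0 for T against WSD, with 6193. The contrasts share animals, and the differences between these counts were not tested.

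The sides did not differ detectably in mean methylation. Over 487852 CpGs with a value in every animal, C averaged 46.0% ± 0.363 and T+WSD 45.4% ± 0.519, beside T at 45.5% ± 0.432 and WSD at 45.8% ± 0.669 (SD, n = 6 each). The interaction difference was 0.199 points (two-sided permutation test of the sides, p = 0.659). It ranged from -0.0443, without WSD 22, to 0.322 points when 1 animal was left out. With all CpGs that had a value in the animal it was 0.921 points (permutation p = 0.164). In the 4 classes of measured density the permutation p lay between 0.207 and 0.791, with an adjusted p of 0.791 in each.

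Animals 1 to 12 had between 767744 and 826713 rows with a value. The range in animals 13 to 24 was 717554 to 820880. At DMCs 2.40% of values were missing in animals 1 to 12 and 6.45% in animals 13 to 24, against 4.08% and 5.03% over all rows. For the 117 DMCs that were higher in C and T+WSD the shares were 1.92% and 7.05%, and for the 29 others 4.31% and 4.02%. A value in every animal was found at 86 of the 146 DMCs (58.9%), close to the 58.0% of all rows. The part of missing values in the result was not tested.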

How the data were processed

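RRBS libraries of omental WAT from 24 animals were used, 6 in each of 4 groups given by the labels. Per the methods of the study and the submitters' processing notes, reads were checked with FastQC 0.11.5, trimmed with Trim Galore 0.4.2 and aligned to rheMac8 with Bismark 0.16.1. The authors deposited percent methylation per CpG and animal, with no scaling between animals. Their methods kept CpGs covered by 10 or more reads in 4 or more of 6 animals of each group, and every row here has a value in at least 4 animals of each group. The table used here holds no read counts, so the depth of a value above that minimum is unknown and no counting interval was computed. A summary of the sequencing that the study gives was not used here. Counting error is larger where fewer reads were obtained.

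Percentages were taken as rates, arcsine-transformed and fitted with limma 3.58.1 in R 4.3.3, all 4 groups in one fit with a shared residual variance. A call needed an adjusted p under 0.05 and an interaction difference over 10 points. The quick form of the fit used for repeats was checked against limma, and all 146 calls were identical. The comb-p procedure was written out (Python 3.11.15, numpy 2.4.6, scipy 1.17.1, numba 0.67.0), with autocorrelation in steps of 50 bp to 300 bp, joining within 300 bp, at least 2 rows and a Sidak p under 0.1. Both were tested on simulated data. The region step recovered fewer planted stretches where many unaffected rows lay within 300 bp, so short stretches in dense sequence can be missed. Tiles of 1 kb needed at least 3 rows. Mean methylation was compared with 100000 permutations.

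Named CpGs are the 5 largest differences in each direction among DMCs with a value in at least 22 animals and no overlap of the sides. Named DMRs are the 3 largest in each direction with at least 3 rows and no overlap, and named tiles the 3 largest in each direction. The contrast and the lists were chosen with earlier results of these data known. Alternatives covered the scale, thresholds, filters, prior, design, tile content, joining distance and the omission of each animal. An annotation of rheMac8 was not used here, so genes, promoters and gene lists were not analysed.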

Additional observations from a re-analysis of the deposited data

Results flagged for a closer look

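The effect of testosterone differed between chow and the western-style diet, by the interaction term itself, at 146 CpGs (limma), in 110 DMRs (comb-p procedure) and in 18 tiles of 1 kb (limma). The contrast is the same split of animals as numbers 1 to 12 against 13 to 24, so the interaction and any batch that followed the numbers cannot be told apart.

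In 86 groups of 6 animals, taken over the named CpGs, DMRs and tiles, mean methylation and the number of rows with a value, 1 animal stood apart from its group. At chromosome 9 position 97257821, T 17 had 86.7%, and the next lowest T animal had 93.9%. Chance gives such a gap in about 1 of 20 groups.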

How the results depend on the processing

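The DMC count was 93 among CpGs with a value in all animals, where fewer CpGs were tested, and 124 to 199 under the other 7 alternatives. The DMR count was 74 to 110 under 10 alternatives, of which the Pearson autocorrelation (89) was chosen after seeing the data. The tile count was 10 on the log-ratio scale and 7 with at least 5 CpGs per tile, where fewer tiles were tested, and 12 to 26 under the other 8 alternatives, of which the mean of arcsine rates (14) was also chosen after seeing the data. The cause of the drop on the log-ratio scale was not tested. Leaving out each animal in turn gave 122 to 156 DMCs, 90 to 128 DMRs and 13 to 20 tiles. The mean methylation interaction ranged from -0.0443 to 0.322 points, and it changed sign only without WSD 22 (-0.0443 points). With all CpGs that had a value in the animal it was 0.921 points (permutation p = 0.164).

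Every named CpG kept its direction and its call under each alternative in which it was tested. The direction was fixed by the choice, since named CpGs have no overlap of the sides. Choosing the largest differences also favours keeping the call. The chromosome 14 and 13 tiles each lost their call in 17 of the 24 fits that left out 1 animal, and the X tile without C 6 and without T 15. Among other alternatives they lost it in 6, 3 and 3. The chromosome 17 tile lost its call on the log-ratio scale (limma, adjusted p = 0.0547). The chromosome 17 DMR was not found among CpGs with a value in all animals, nor the scaffold DMR with a minimum difference of 20 points. No paired analysis was possible because the animal numbers differ between the groups. The promoter count and its alternatives were not run, since an annotation of the build was not used here. The depth behind each value above the authors' minimum is unknown, so a higher coverage minimum could not be tried.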
